A study of Drosophila melanogaster with 23 samples.

Results

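Open chromatin around nub and pdm2 was examined in Drosophila melanogaster embryos at the blastoderm stage. The locus was taken as the interval 2L 12580000 to 12700000 of genome build dm3, 120 kb long. The authors' ATAC-seq peaks of 22 libraries were merged wherever they overlapped by 1 bp or more, and the 39 merged regions centred in the interval were kept, of 25311 on the chromosome arms. They are numbered 1 to 39 from left to right. The peaks themselves defined the regions. The interval was proposed with peak differences between anterior and other nuclei already known, so every anterior comparison here is a description of the locus and supports nothing beyond it.

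nub (gene ID 34669, locus tag Dmel_CG34395) and pdm2 (gene ID 34673, locus tag Dmel_CG12287) are related neighbouring genes that encode POU-domain transcription factors. In the blastoderm they are known to be transcribed in bands along the trunk under control of the gap genes, and later they act together in the temporal sequence of neuroblasts. nub is also needed for wing growth. ATAC-seq cuts and tags DNA with the Tn5 transposase where it is not packed against nucleosomes, so a peak marks an accessible stretch, often an enhancer or promoter. In RefSeq's table of Release 6, a later build, the genes start in the order CG43051, nub, Ref2, pdm2, Nepl7. That table's positions were not used with dm3 coordinates, so regions were placed on neither gene, and no exon, intron or UTR is given for them.

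Nuclei were tagged by 7 transgenes, each with an enhancer active in a band of the embryo that drives the nuclear envelope protein UNC84 with a FLAG tag. All strains had a wild-type background, and embryos were frozen between 2:50 and 3:10 h after laying. Tagged nuclei were pulled down with an antibody against FLAG, and 8 whole-embryo libraries skipped that step. The band is therefore defined by where a transgene is active, and any nuclei carried along in the pull-down are part of the measurement.

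The anterior group held 6 libraries, 2 each of D1 (hb_anterior_Hs34_UNC84-3xFLAG), D3 (eve stripe 1, eve_stripe1_DSCP) and D2 (eve stripe 2, eve_stripe2_DSCP). The central group held 4 libraries, of D4 (D_central_Hs43) and D5 (Kr_central_Hs43). The posterior group held 4 libraries, of D6 (eve stripe 5, eve_stripe5_DSCP) and D7 (gt_posterior_Hs43). Whole-embryo libraries came from the D1, D4, D5 and D7 strains, 2 each. Replicates 1 and 2 carried the strain labels line A and line B, except in D3, where both carried line A. In D3 nothing further marks the replicates as separate cultures, and in every domain the spread between replicates may be partly technical.

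Each library came as a list of 16830 to 22169 peaks on the arms, covering 10.3 to 14.5 Mb, with no read counts, so the read depth behind a peak is unknown. Lists covered 12.2 ± 1.29 Mb in the anterior (SD, n = 6), 13.7 ± 0.684 Mb in the central (n = 4), 11.6 ± 1.00 Mb in the posterior (n = 4) and 13.1 ± 0.502 Mb in the whole-embryo group (n = 8). The median −log10 q of a list ran from 20.3 to 55.0. Its mean and SD were 27.8 ± 9.06 for anterior lists and 34.6 ± 12.8 for central and posterior lists (n = 6 and 8), and its part in the differences below was not tested. In 14 lists some peaks carry letters in their names and the values of a late summit, whereas 8 lists have none. Folds are the authors' values for each peak in its own list and are given as a description, not ranked between libraries, and bases covered by peaks served as the main measure.

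Of the 39 regions, 17 had a peak in all 22 libraries, a share of 43.6% against 42.8% of all regions. A further 19 were found in 2 to 21 libraries and 3 in 1 library. Anterior libraries held fewer of the regions than the other tagged libraries did. The counts were 24 and 23 in D1, 20 and 20 in D3, and 21 and 20 in D2. They were 35 and 28 in D4, 29 and 26 in D5, 23 and 28 in D6, and 31 and 27 in D7. The ranges met at D1 replicate 2 and D6 replicate 1, each with 23, and D1 replicate 1 with 24 stood above that D6 library. The means were 21.3 ± 1.75 in the anterior (SD, n = 6), 28.4 ± 3.54 in the central and posterior (SD, n = 8) and 26 ± 2.2 in whole embryos (SD, n = 8, range 23 to 30). Of the 25311 regions on the arms, anterior lists held 14347 to 19174 and the other tagged lists 13692 to 18838. The lowest of these was D6 replicate 1 and the highest D1 replicate 1.

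The bases covered by peaks set the anterior apart from every other library, tagged or whole embryo. Anterior lists covered 12387 ± 1121 bp of the interval (SD, n = 6, range 10702 to 14020). Central lists covered 23559.8 ± 2386 bp (SD, n = 4, range 20998 to 26712) and posterior lists 20687 ± 3381 bp (SD, n = 4, range 15888 to 23832). Whole embryos lay between the anterior and the central at 18359.6 ± 1699 bp (SD, n = 8, range 15670 to 21145). The order of the domain means was 11492 bp in D2, 12085.5 bp in D3, 13584 bp in D1, 18699.5 bp in D6, 22355 bp in D5, 22674.5 bp in D7 and 24764.5 bp in D4. The libraries of D2 and D3 overlapped, as did those of D6, D5, D7 and D4 each with its neighbour in that order, while D1 overlapped neither D3 below it nor D6 above it. Per kb covered by the whole list, the interval took 1.02 ± 0.0876 bp in the anterior (range 0.921 to 1.14), 1.75 ± 0.134 bp in the other tagged libraries (range 1.54 to 1.91) and 1.395 ± 0.0911 bp in whole embryos (range 1.27 to 1.57). The anterior and the other tagged libraries did not overlap on this scale either.

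**Figure D1:**
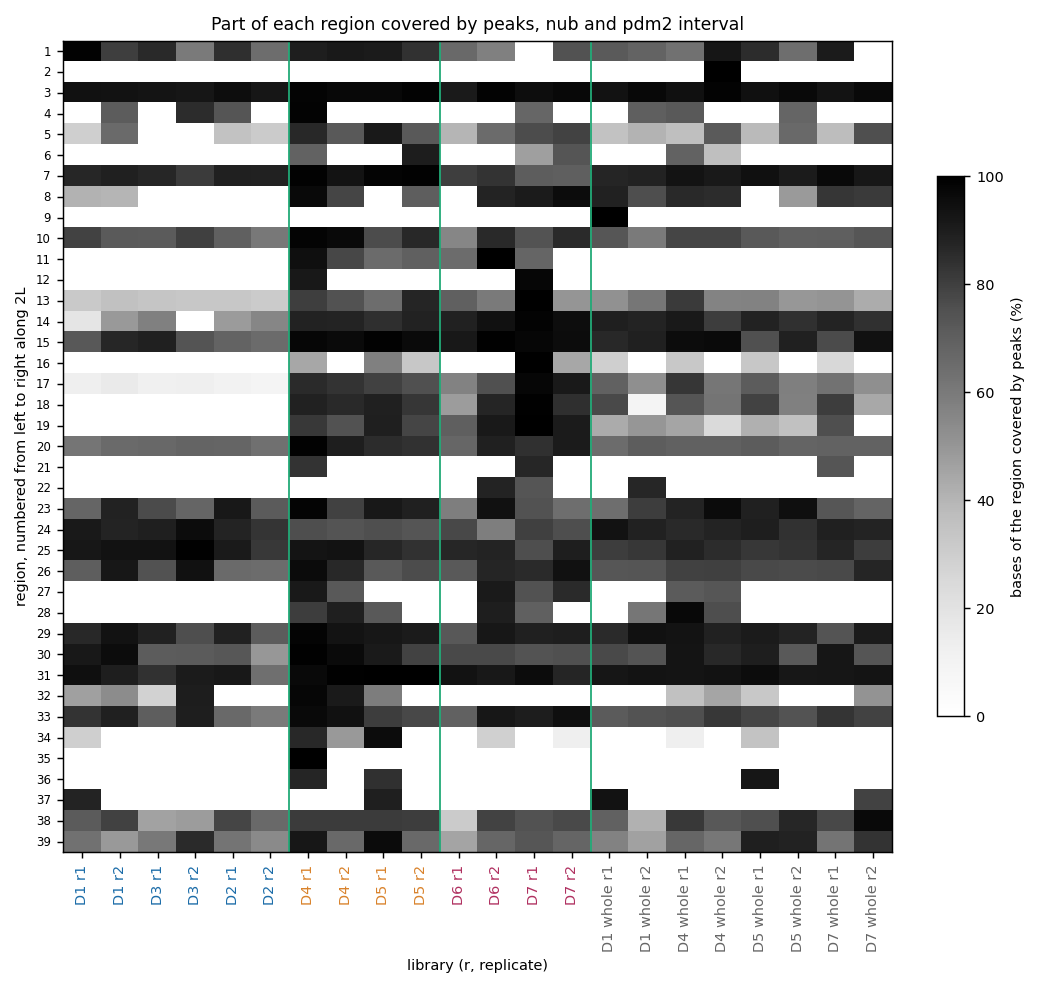
Share of each merged region covered by peaks, in percent from white (0) to black (100), for the 39 regions of the interval (rows, left to right along 2L) in the 14 tagged and 8 whole-embryo libraries (columns; anterior, central, posterior and whole embryo separated by lines). Regions 18 and 19 are blank in all 6 anterior libraries and shaded in all 8 central and posterior libraries. A peak shades 17 regions in all 22, to differing extents.

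By direction, 12 of the 39 regions had no peak in any anterior library and a peak in at least 1 central or posterior library, a pattern of 10.9% of all regions. The reverse was seen at 0 of 39 and at 7.12% of all regions. Of the 12, 7 were found in at least 4 of the 8 central and posterior libraries (regions 6, 11, 16, 18, 19, 27 and 28), a pattern of 1.25% of all regions. Regions 18 and 19 were found in all 8 central and posterior libraries and in none of the 6 anterior ones. That pattern had 2 of the 36 regions found in at least 2 of the 14 tagged libraries, and 0.112% of the 21358 such regions on the arms. The reverse had 0 of 36, against 0.136%.

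The length covered was compared region by region with an exact two-sided permutation test over the 3003 splits of the 14 tagged libraries, adjusted with the Benjamini-Hochberg method over the 21358 regions. Among the 36 member regions tested, 6 (13, 14, 15, 17, 18 and 19) passed at 0.05 with more bases covered in the central and posterior libraries, beside 0.866% of all regions. Region 24 passed with more bases in the anterior, beside 0.744%. Together they are 7 of 36, beside 1.61% of regions in either direction. These calls are on a contrast known when the interval was proposed and are listed as a description. Without 1 library the count of 7 ran from 0 to 9, and it was 0 without any of 11 of the 14 libraries. It was 0 with a replicate block (smallest adjusted p 0.0533) and within naming style (0.102). These settings and the removal of a library allow fewer splits than 3003, so the smallest p they can give is larger. Their 0 counts therefore cannot tell a lost difference from a test too coarse to call it. Scaling to the length covered ended the calls at regions 15 and 24. It left 6 members called, all with more bases in the central and posterior libraries, among them a member not called unscaled. The mean was higher in the central and posterior libraries at 29 of 36 members and at 61.1% of all regions. With bases scaled to the length each list covered, the share of all regions was 48.4%. The members' 29 of 36 is unscaled, and no scaled share is given for them. Unscaled, the median difference was 83.1 bp over the members and 16.9 bp over all regions. At the same 6 members every central and posterior library lay above every anterior one (0.833% of all regions), and at region 24 the opposite held (0.876%). Presence alone, by Fisher's exact test with the same adjustment, called 0 of 17 members and 0% of the 9284 regions tested. At an unadjusted p under 0.05 it took 6 members, against 5.78% of regions. All 6 were found less often in the anterior (2.76% of regions), and 0 more often (3.03%). The smallest adjusted p that any region reached was 0.0284 for length and 0.0583 for presence.

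The 6 regions lie side by side, with region 16 among them, in 14.7 kb from 12614519 to 12629221. This stretch was drawn after its values were seen and has no test. Its 7 regions held 1989 and 2725 bp of peaks in D1, a mean of 2263 bp in D3 and 2278 bp in D2. The mean was 9541.5 bp in D4, 9571.5 bp in D5, 8079.5 bp in D6 and 10771 bp in D7. Across groups the values were 2299 ± 399 bp in the anterior (SD, n = 6, range 1756 to 2770), 9491 ± 1292 bp in the central and posterior (SD, n = 8, range 7032 to 11718) and 7277 ± 1271 bp in whole embryos (SD, n = 8, range 5309 to 8896). Every anterior library was below every other library, tagged or whole embryo. The other 32 regions of the interval held 10088 ± 1098 bp in the anterior (range 8414 to 11295) and 12632.5 ± 2278 bp in the other tagged libraries (range 8856 to 16787), and these ranges overlapped. Of the difference of 9736 bp over the interval, 7192 bp fell in the stretch, and with the strongest 50% of each list these were 3590 and 2878 bp.

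**Figure D2:**
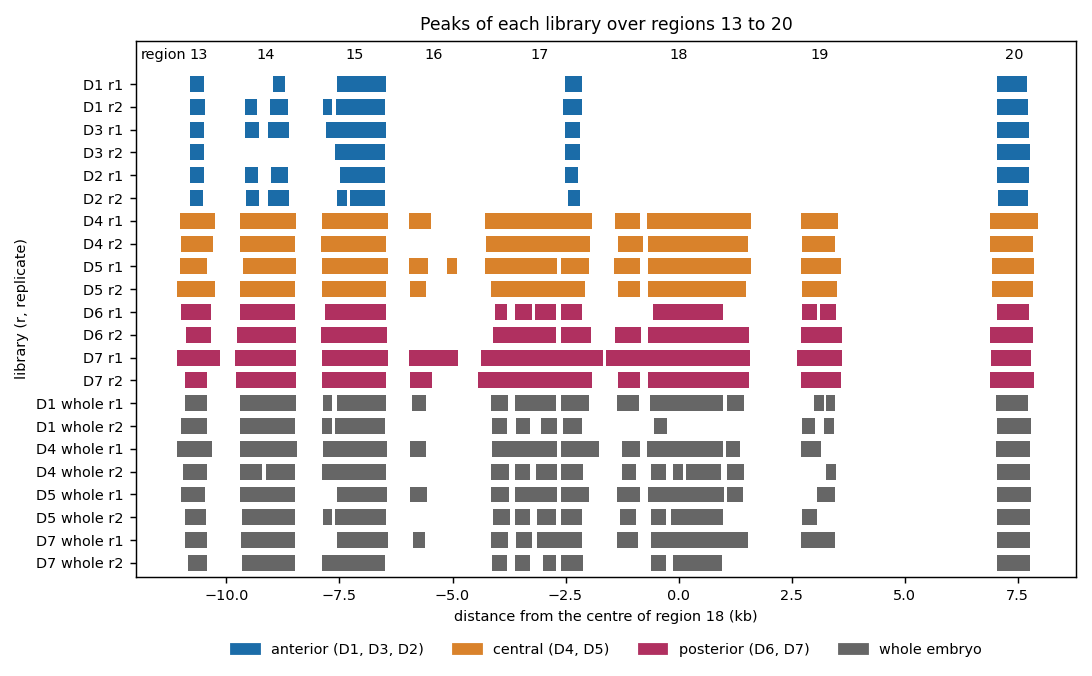
Peaks of each of the 22 libraries (rows) over regions 13 to 20, drawn to scale against the distance in kb from the centre of region 18, with bars coloured by group. The 6 anterior libraries have short peaks in regions 13, 14 (except D3 replicate 2) and 17 and none in regions 16, 18 and 19, where the other tagged libraries have long peaks in regions 18 and 19.

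Region 18 (2L 12624007 to 12627217, 3211 bp) is the widest region of the interval. No anterior library had a peak in it. The bases covered were 2841 and 2767 in D4, 2857 and 2652 in D5, 1541 and 2806 in D6, and 3193 and 2715 in D7. Outside D6 replicate 1, with the lowest value, the tagged central and posterior libraries filled most of the region. With that library included, their mean was 2672 ± 484 bp (SD, n = 8). Whole embryos of the D1 strains covered 2483 and 278 bp, those of D4 2370 and 1985 bp, those of D5 2546 and 1847 bp, and those of D7 2586 and 1406 bp. Their mean was 1938 ± 786 bp (SD, n = 8), and all 8 had a peak. The peaks were shallow: the authors' fold over the reference was at most 2.59 in the central and posterior lists and 2.12 in whole embryos. Without read counts, a peak that is absent and one just below the authors' calling threshold cannot be told apart.

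Region 19 (2L 12628233 to 12629221, 989 bp) likewise had no anterior peak. The central and posterior libraries covered 811 and 741 bp in D4, 882 and 774 bp in D5, 689 and 904 bp in D6, and 986 and 896 bp in D7. Their mean was 835 ± 98.5 bp (SD, n = 8) and their folds ran from 1.80 to 2.93. Whole embryos covered 390.4 ± 214 bp (SD, n = 8, range 0 to 749), less than the tagged central and posterior libraries in all but D7 replicate 1, whose 749 bp fell within their range. The 1 whole-embryo library without a peak was replicate 2 of D7.

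Region 17 (2L 12621168 to 12623934, 2767 bp) had a peak in all 22 libraries but a different extent. Anterior libraries covered 362 and 425 bp in D1, 337 and 348 bp in D3, and 284 and 254 bp in D2. Central and posterior libraries covered 2371 and 2309 bp in D4, 2200 and 2078 bp in D5, 1572 and 2083 bp in D6, and 2697 and 2524 bp in D7. The means were 335 ± 60.3 bp (SD, n = 6) and 2229 ± 340 bp (SD, n = 8), and even the lowest of the latter was far above every anterior library. Whole embryos covered 1759 ± 284 bp (SD, n = 8, range 1438 to 2283). In each anterior library the region held 1 short peak, between 12623055 and 12623479, with summits within 48 bp of each other and folds of 1.45 to 1.76. In the other tagged libraries the outermost bases were 12621168 and 12623934, with folds of 1.71 to 2.88 there and 1.96 to 2.33 in the whole-embryo lists. The right part of the region thus had a peak in every library, and the left part had none in the anterior.

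Regions 13, 14 and 15 held stronger peaks. In region 13 (2L 12614519 to 12615460, 942 bp) anterior libraries covered 301 and 338 bp in D1, 318 and 311 bp in D3, and 312 and 293 bp in D2. Central and posterior libraries covered 756 and 703 bp in D4, 609 and 824 bp in D5, 652 and 565 bp in D6, and 942 and 474 bp in D7. All 22 summits lay within 32 bp, between 12614946 and 12614978. The authors' fold was 2.54 to 3.11 in the anterior, 5.58 to 7.33 in the central, 5.18 to 6.89 in the posterior and 4.31 to 6.32 in the whole-embryo lists. The peak stood at the same place in every library and was narrower in all 6 anterior ones than in any other.

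In region 14 (2L 12615797 to 12617177, 1381 bp) the anterior libraries covered 254 and 677 bp in D1, 798 and 0 bp in D3, and 664 and 770 bp in D2. The other tagged libraries covered 1168 to 1360 bp, with a median of 1221 bp, and whole embryos 1115 to 1258 bp. Where the central and posterior libraries had 1 long peak, 4 anterior libraries had a pair of short ones. Their summits fell near both places where the long peaks had theirs, around 12616160 and 12616828. The fold of the strongest peak was 1.78 to 3.14 in the 5 anterior libraries with a peak. Central folds were 4.95 to 8.94 and posterior folds 6.39 to 8.27. D3 replicate 2 had no peak here.

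In region 15 (2L 12617702 to 12619182, 1481 bp) anterior libraries covered 1125 ± 144 bp (SD, n = 6, range 971 to 1317) and central and posterior libraries 1430.1 ± 35.7 bp (SD, n = 8, range 1355 to 1470). Whole embryos covered 1298 ± 120 bp (SD, n = 8, range 1111 to 1424), overlapping both. Folds were 8.55 to 10.3 in the anterior, 13.2 to 14.4 in the central, 10.5 to 15.7 in the posterior and 11.4 to 13.7 in whole embryos. A peak was thus found in all bands, and the anterior libraries covered less of the region. Region 16 (2L 12619641 to 12620737) was found in 5 of 8 central and posterior and 4 of 8 whole-embryo libraries and in 0 of 6 anterior ones, with folds of at most 1.96.

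Base by base, 3851 bp of the interval were covered in all 8 central and posterior libraries and in no anterior library. They fell into 12 runs, all between regions 13 and 19, and the longest, 1541 bp from 12625044 to 12626584, was the whole peak of D6 replicate 1 in region 18. In 2 runs, 10 bp were covered in all 6 anterior and in none of the other tagged libraries. No share over all arms is given beside these counts, so they describe the interval alone. All 22 libraries shared 8275 bp, of 31017 bp covered in any library.

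**Figure D3:**
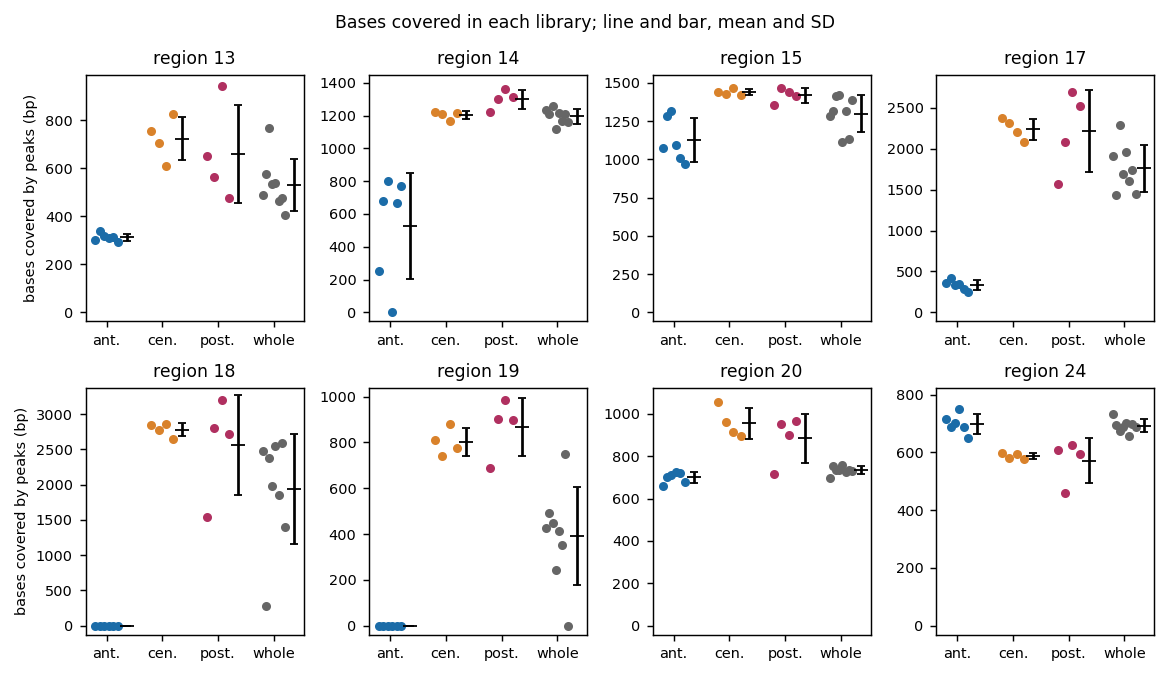
Bases covered by peaks (bp, axes from 0) in 8 named regions, each point a library, for anterior (ant., n = 6), central (cen., n = 4), posterior (post., n = 4) and whole-embryo (whole, n = 8) libraries, with a line and bar for mean and SD. In regions 13, 14, 15, 17, 18 and 19 every anterior point lies below every central and posterior point, and in region 24 every anterior point lies above them.

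Beyond the stretch, region 20 (2L 12632498 to 12633566, 1069 bp) leaned the same way without passing the test. It covered 699.5 ± 26.0 bp in the anterior (SD, n = 6, range 659 to 725), 919.9 ± 96.6 bp in central and posterior libraries (SD, n = 8, range 718 to 1057) and 733 ± 19.1 bp in whole embryos (SD, n = 8). D6 replicate 1, at 718 bp, was the only central or posterior library within the anterior range. Anterior folds were 3.09 to 5.61, and central and posterior folds 6.09 to 8.15.

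Region 24 (2L 12662521 to 12663304, 784 bp) went the other way. Anterior libraries covered 715 and 686 bp in D1, 700 and 750 bp in D3, and 686 and 650 bp in D2. Central and posterior libraries covered 597 and 579 bp in D4, 594 and 576 bp in D5, 608 and 458 bp in D6, and 625 and 595 bp in D7. The means were 698 ± 33.4 bp (SD, n = 6) and 579 ± 51.3 bp (SD, n = 8), and whole embryos at 691 ± 22.5 bp (SD, n = 8) lay with the anterior. The fold was 3.91 to 6.31 in the anterior, 2.33 to 2.81 in the central, 2.19 to 3.36 in the posterior and 3.40 to 5.26 in the whole-embryo lists. Thus a peak was present in all 22 libraries, and in all 6 anterior ones it was wider than in any central or posterior library.

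**Figure D4:**
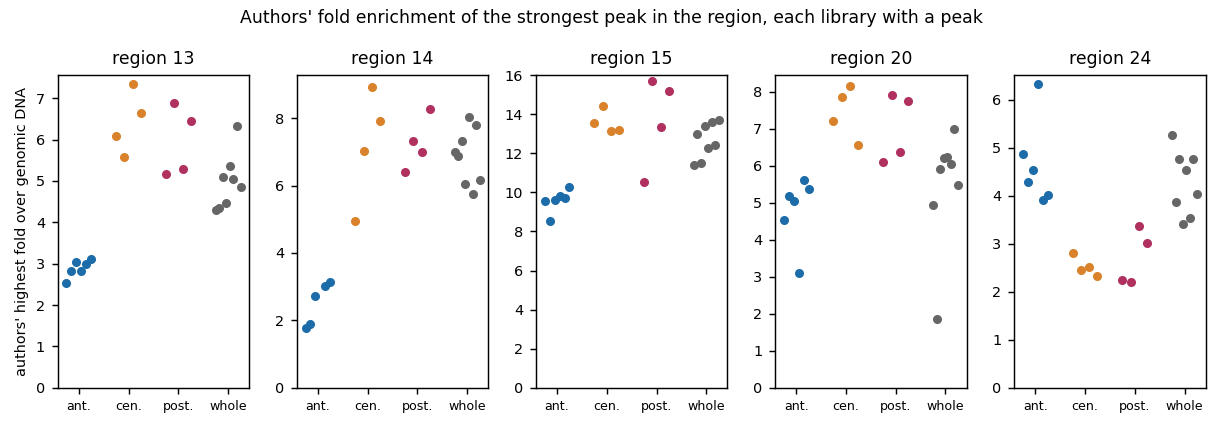
The authors' fold enrichment over genomic DNA of the strongest peak in regions 13, 14, 15, 20 and 24, each point a library with a peak, by group (ant., anterior; cen., central; post., posterior; whole, whole embryo), with axes from 0. Folds are each peak's own value in its list, not scaled between lists; in region 13 anterior values run from 2.54 to 3.11, central and posterior values from 5.18 to 7.33, and in region 24 from 3.91 to 6.31 and from 2.19 to 3.36.

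Regions 25, 30, 7, 32, 1 and 4 completed the named set. In region 25 (2L 12665780 to 12666818) anterior and other tagged libraries covered 954 ± 59.9 and 906 ± 57.7 bp (SD, n = 6 and 8), with folds of 9.14 to 12.8 and 7.81 to 10.3, and the ranges overlapped. Region 30 (2L 12679140 to 12680240) covered 828 ± 183 and 921 ± 111 bp, and region 7 (2L 12607250 to 12607821) 497 ± 16.8 and 496 ± 71.3 bp. In region 7 the 532 to 567 bp of the central libraries lay above the anterior range of 464 to 508 bp, and the 398 to 478 bp of the posterior ones lay mostly below it. Region 32 (2L 12681541 to 12682319) was found in 4 of 6 anterior, 3 of 4 central, 0 of 4 posterior and 4 of 8 whole-embryo libraries. Region 1 was found in 6 of 6 anterior and 7 of 8 other tagged libraries and region 4 in 3 of 6 and 2 of 8.

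Regions 11 and 12 were found in tagged libraries and in no whole embryo. Region 11 (2L 12612773 to 12613120, 348 bp) covered 329 and 271 bp in D4, 228 and 241 bp in D5, 227 and 348 bp in D6, and 235 and 0 bp in D7, and no anterior library had it. Its folds ran from 2.04 to 3.59. Region 12 (2L 12613783 to 12614013) was found in replicate 1 of D4, with 212 bp, and of D7, with 225 bp. Absence from whole embryos and at least 2 tagged libraries with a peak was a pattern of 4.28% of all regions.

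The anterior was next set against the central libraries alone. Both tests called 0 of the members and 0% of all regions, and with 6 against 4 libraries the smallest p a permutation can give is 0.00476 and the smallest adjusted p was 0.106. At an unadjusted p under 0.05 the length test took 17 of 33 members and 19% of 20932 regions. Every central library lay above every anterior one at 13 of 33 members (regions 3, 5, 7, 11, 13, 14, 15, 17, 18, 19, 20, 31 and 38) and at 6.5% of all regions, and the reverse held at region 24 alone among members and at 1.36% of regions. Regions 11, 18 and 19 were found in all 4 central and no anterior library, a pattern of 0.731% of regions, and 0 members showed the reverse (0.258%). Unadjusted, Fisher's test took 5 of 14 members and 8.87% of 7787 regions. All 5 were found less often in the anterior (6.74% of regions), and 0 more often (2.13%). Central lists covered more of the genome than anterior ones, and the mean was higher in the central libraries at 77.2% of all regions and 30 of 33 members. Scaled to the length each list covered, the share of all regions was 48.7% and their median difference went from 53 to −3.48 bp, so the direction of the background depends on that scaling. The 30 of 33 members is an unscaled count with no scaled value beside it.

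Posterior lists covered less of the genome than anterior ones. The mean was higher in the posterior at 25 of 32 members and 40.5% of all 19461 regions, and higher in the anterior at 7 members and 59.4%. The median difference was −16.5 bp over all regions and 69.8 bp over the members. Scaled to the length covered, the share of all regions higher in the posterior was 53.9% and their median difference 8.66 bp, so this background turned as well. The members' 25 of 32 is likewise unscaled only. Both tests again called 0 members and 0% of regions, with a smallest adjusted p of 0.151 for length. Unadjusted, the length test took 12 of 32 members and 11% of regions. Every posterior library lay above every anterior one at 6 members and 1.24% of regions, and the reverse held at 1 member and 2.82% of regions. Regions 18 and 19 were found in all 4 posterior and no anterior library (0.164% of regions), and 0 members showed the reverse (0.447%). Unadjusted, Fisher's test took 4 of 13 members and 6.99% of 7229 regions, all 4 found less often in the anterior (1.63%) and 0 more often (5.35%). Both comparisons share the 6 anterior libraries and are not independent of each other.

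Library names came in 3 styles, which may mark batches, and differences within each style were compared. The first style held 1 anterior and 3 other tagged libraries, the second 3 and 4, and the third 2 and 1. The central and posterior libraries exceeded the anterior by 2061, 1772 and 1782 bp at region 17, by 2964, 2419 and 2806 bp at region 18, and by 893, 775 and 904 bp at region 19. They fell below it by 110, 101 and 242 bp at region 24. Over the stretch of 7 regions the differences were 8496, 6249 and 7105 bp. The directions were the same in all 3 styles for these regions and for regions 13, 14, 15 and 20. Except at region 20, no anterior library overlapped the other tagged libraries at these regions or over the stretch. Any subset of libraries must then give the same direction, so this agreement was fixed in advance and says nothing about batches. With libraries permuted only within a style, however, the length test called 0 members (smallest adjusted p 0.102), and the median difference over all regions was 0.0833 bp. Permuting within a style allows fewer splits than the 3003 of the main test. The smallest possible p is therefore larger, and the 0 calls cannot decide whether the difference holds within styles.

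For 8 strains there were libraries both of tagged nuclei and of the unsorted embryo, set side by side with no test. In the 6 strains of D4, D5 and D7 the tagged nuclei covered more bases than the whole embryos at regions 15, 17, 18, 19 and 20 in 6 of 6. Regions 13 and 14 were mixed, with more bases in the tagged nuclei in 5 of 6 and 4 of 6 strains. In the 2 strains of D1 the tagged nuclei covered fewer bases at all 7 of these regions in 2 of 2. At region 18 the tagged library exceeded the whole embryo by 311 to 1309 bp in D4, D5 and D7 and fell short by 2483 and 278 bp in D1. At region 24 the tagged library covered fewer bases in 6 of 6 (by 72 to 108 bp) and, in D1, in 2 of 2 by 8 and 19 bp. Whole embryos mix all bands, and a smaller share of nuclei with an open region and a smaller signal in each nucleus cannot be told apart in them.

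None of the remaining regions passed the test against the central and posterior libraries together. Region 5 (2L 12602467 to 12603161) covered 187 ± 171 bp in the anterior and 506 ± 109 bp in the other tagged libraries (SD, n = 6 and 8), found in 4 of 6 and 8 of 8. Region 8 was found in 2 of 6 and 6 of 8, and region 34 in 1 of 6 and 5 of 8, the latter with 1319, 744 and 1454 bp in 3 of the 4 central libraries. Regions 27 and 28 were each found in 5 of 8 central and posterior and 0 of 6 anterior libraries, region 6 in 4 of 8 and 0 of 6, and regions 21, 22 and 36 in 2 of 8 and 0 of 6. Region 37 was found in 1 of 6 and 1 of 8. Region 35 was found in 1 central library, and regions 2 and 9 in 1 whole-embryo library each. Regions 3, 10, 23, 26, 29, 31, 33 and 38 were found in all 22 libraries. Region 3 (2L 12593626 to 12594692) covered 985 to 1016 bp in the anterior, 1034 to 1051 bp in the central and 970 to 1051 bp in the posterior libraries. Region 31 (2L 12680419 to 12681303) covered 565 to 840, 854 to 885 and 773 to 844 bp, and region 38 453 to 780, 794 to 796 and 307 to 779 bp. Among these 8, region 29 (2L 12677979 to 12679040) had the highest fold, up to 14.5 in the anterior, 14.4 in the central, 14.7 in the posterior and 13.6 in whole embryos, and it covered 893 ± 91.4 and 951 ± 79.6 bp in the anterior and the other tagged libraries.

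The ends of the interval were far from the stretch of 7 regions. Just inside the left end, region 1 (2L 12584883 to 12585228) covered 274 bp in the anterior, 239.6 bp in the other tagged and 232 bp in the whole-embryo libraries, on average. Just outside, 2L 12575166 to 12575433 covered 34.7, 31.4 and 136 bp. Just inside the right end, region 39 (2L 12694668 to 12695107) covered 274, 315.5 and 304 bp, and just outside, 2L 12704174 to 12705234 covered 959, 929.9 and 916 bp.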

How the data were processed

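ATAC-seq was done on 14 libraries of tagged nuclei and 8 of whole embryos. The genomic DNA sample was not analysed here. Bowtie2 2.2.9, SAMtools 1.3.1, MACS2 2.1.1.2 and build dm3 are named in the submitters' processing notes, and rtracklayer 1.40.3 per the file headers. Peaks were called per library, as the deposited lists show. The authors' deposited score was within 1 of 10 times the −log10 q in 100% of the peaks, and no −log10 q was below 2. The fold enrichment, q-value and summit of each peak are the authors', were not scaled between lists and are printed as descriptions with no test. The handling of the transposase offset is not given in the sources used here.

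Peaks on all chromosome arms were merged (1 bp overlap), and presence and bases covered were computed per library with Python 3.11.15, numpy 2.4.6 and scipy 1.17.1. Figures were drawn with matplotlib 3.10.9. Bases covered (0 with no peak) were compared by exact permutation tests of the mean at regions found in at least 2 compared libraries, and presence by Fisher's exact test at regions found in and missing from at least 2, all two-sided, with Benjamini-Hochberg adjustment over all such regions at 0.05. Libraries were the units, although both libraries of a domain are alike, so p-values are too small. The tests were checked on simulated data.

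Members, lists and tests were chosen with earlier results of these data known. Regions described in full are those found in all libraries of a side and none of the other in any comparison, the 6 with the smallest permutation p in each direction, the 4 widest found in all 22 libraries, those in at least 2 tagged and no whole-embryo libraries, and those at the ends of the interval. Without a dm3 annotation or genome, a list of gap and neuroblast genes was not located, the driver genes of the transgenes were not checked, and no sequence is shown. Alternatives used the strongest or widest 50% of peaks, lists of equal length, scaling to the total covered, another overlap, 500 bp bins, no filter, naming style, a replicate block and the removal of each library.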

Additional observations from a re-analysis of the deposited data

Results flagged for a closer look

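In groups of 4 to 8 libraries, 8 of 77 combinations of measure and group had a library whose gap to the nearest other was above Dixon's 95% critical value. Chance sets that mark about 1 in 20 times in normally distributed values, which bases covered, often 0, are not. Replicate 1 of D4 and of D7 account for 4 of the 8. In those 4 every other library of the group had 0 bp, so the mark was set by construction. Region 4 covered 294 bp in D4 replicate 1 and 200 bp in D7 replicate 1, with 0 bp in the other central and posterior libraries. Region 12 covered 212 bp and 225 bp in the same libraries, again with 0 bp in the others of their groups. Region 7 covered 464 bp in D3 replicate 2, below 497 to 508 bp in the other anterior libraries, and 532 bp in D4 replicate 2, below 562 to 567 bp in the other central ones. Region 14 covered 1168 bp in D5 replicate 1, against 1211 to 1219 bp in the other central libraries. Region 1 covered 0 bp in replicate 2 of the D7 whole embryos, against 218 to 320 bp in the other whole-embryo libraries.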

How the results depend on the processing

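The number of member regions called on length between the anterior and the other tagged libraries (7) became 4 with the strongest 50% of each list, 11 with bins of 500 bp (a count of bins) and 0 when permuted within naming style (smallest adjusted p 0.102). Replicate numbers were not taken to pair the libraries, since not every pair of domains had deviations of same-numbered libraries correlated over 0.1 (9 of 21 did, mean 0.104, range −0.307 to 0.611). Within every domain the number also goes with naming style, and in every domain but D3 with line. With the replicate number as a block the count was 0 (smallest adjusted p 0.0533). Without 1 library it ran from 0 to 9. It was 7 without D2 replicate 2, 6 without D5 replicate 1, 9 without D6 replicate 1 and 0 without any of the other 11, where the smallest adjusted p was at most 0.0607. The block, the naming styles and the removal of a library all leave fewer splits than 3003, so their smallest possible p is larger. Presence called 3 members with the widest 50% of each list, and 0 in the other settings.

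Scaled to the length covered, regions 15 and 24 lost their calls (adjusted p 0.244 and 0.150). In all, 6 members were called there, each wider in the central and posterior libraries. The share of all regions with the higher mean in the central and posterior libraries fell to 48.4%, with a median difference of −2.67 bp. The median over all regions changed sign with this scaling in all 3 comparisons. Region 17 lost its call with the strongest 50% of peaks (0.819), region 18 with at least 50% of the region covered (0.113) and region 19 with the widest 50% (0.0958) and with equal length (0.0871). With the strongest 50% of peaks, regions 18 and 19 were left in too few libraries to be tested. Their calls therefore have no result in that setting. The causes were not tested. No named region that was called changed direction, and the comparisons with the central or posterior libraries alone called 0 members in every setting.

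The difference in regions found (7.04) became 1.54 with the strongest 50% of peaks, 10.2 with at least 50% covered and 18.6 with bins, and was 6.10 to 7.81 without 1 library. The difference in bases over the interval (9736 bp) became 3590 bp with the strongest 50% and 9081 to 10627 bp without 1 library. That over the stretch (7192 bp), chosen after seeing the data like the last, became 2878 bp with the strongest 50%, 6165 bp with bins and 6873 to 7543 bp without 1 library.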

Other observations

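The interval's profile over libraries was set beside that of 586 windows of 120 kb tiled on the arms, by the share of a window's regions found in each of the 14 tagged libraries. The likeness is a description, since libraries share depth and list length across windows, and the median Pearson r was 0.349. The most alike was 3R 720001 to 840000, with 55 regions and r = 0.840 over 14 libraries. It had 61.5% of its regions found in the anterior and 69.8% in the other tagged libraries. The next was 3L 360001 to 480000, with 61 regions and r = 0.836, and 45.6% against 60.2% found. The last of the 3 was 3R 12480001 to 12600000, with 84 regions and r = 0.822, and 37.5% against 75.9% found. The interval of nub and pdm2 itself had 54.7% against 72.8%. A larger difference between the anterior and the other tagged libraries was seen in 6 windows.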
